A study of Mus musculus with 14 samples.

Results

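Splicing factors and heterogeneous nuclear ribonucleoproteins (hnRNPs) were examined in mouse cerebral cortex, in mRNA and in ribosome footprints. Members were taken by gene symbol: every gene of the count table whose symbol starts with Hnrnp, Srsf and a digit, Sf3a or Sf3b and a digit, or Snrp. This gave 49 of 23412 genes, made up of 18 hnRNP genes, 11 SR protein genes, 8 genes of the SF3A and SF3B complexes and 12 Snrp genes, which encode snRNP proteins. Symbols that start with Snrnp, and older spellings such as Hnrpdl, Hnrpll and 0610009D07Rik, fall outside this rule.

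All mice carried Rpl22flox/flox and CamKCre+, which in this Ribotag design let a tagged ribosomal protein be made in cells that express Cre from a CamK promoter. Controls had intact Fmr1, and knock-out (KO) mice were labelled Fmr1X-Y on the same background. Fmr1 encodes FMRP, an RNA-binding protein found on translating ribosomes. No pull-down of tagged ribosomes is named in the protocols, so both assays are described here as whole cortex, and the labels give no age. RNA was sequenced from control mice 1, 3, 6 and 8 and from KO mice 2, 4, 5 and 7, or 4 of each. Ribosome profiling, which sequences the mRNA fragments that ribosomes shield from nuclease, had 3 control mice (1, 3 and 9) and 3 KO mice (2, 4 and 10). In such bulk tissue, fewer cells of a type and less RNA per cell cannot be told apart.

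Total counts were 8847547 to 11371851 per RNA library and 4124065 to 6033030 per footprint library. Fmr1 itself was measured as a check of the labels, and its RNA was at 71.4 to 90.0 CPM (counts scaled to a common library size) in controls and 18.1 to 23.4 CPM in KO mice. Its footprints were at 111 to 115 CPM and 5.84 to 8.56 CPM. The RNA libraries of KO mice 2, 4 and 7 were nearly identical, differing from each other by a chi-square of 1.18 to 1.32 per degree of freedom over genes, against 5.64 to 6.02 for their pairs with KO mouse 5. Control mice 1 and 3 differed by 1.99, less than any other pair of controls, and control mouse 8 stood farthest from the others (4.03 to 11.8). Footprint pairs within a genotype lay at 1.15 to 1.42. Whether these near-identical libraries are separate tissue samples is not given in the sources used here, so the p-values measure the spread between these libraries, which may be technical. Markers of all 8 brain cell types and regions looked for were detected. Summed excitatory neuron markers (7 genes) were at 2530 to 2810 CPM in control RNA and 3170 to 3440 CPM in KO RNA, with 2 of 7 called higher. Summed oligodendrocyte markers (6 genes) were at 4890 to 5330 CPM and 4270 to 4600 CPM, with 1 of 6 called lower.

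A pre-mRNA is spliced by the spliceosome, whose U1, U2, U4, U5 and U6 particles are each built from a small nuclear RNA and proteins. The Snrp genes encode the Sm proteins that form a ring around most of these RNAs, and proteins particular to U1 (Snrpa, Snrpc) or U2 (Snrpa1, Snrpb2). SF3A and SF3B are the parts of the U2 particle that hold the branch point, and Sf3b1 encodes the largest subunit of SF3B. SR proteins bind exons, mostly promote their inclusion, and are regulated by phosphorylation of their arginine and serine repeats. HnRNPs coat nascent transcripts, often oppose SR proteins, and several shuttle to the cytoplasm. Many of these genes, the SR protein genes above all, limit their own output through alternative exons that bring an early stop codon. Neurons express these factors at high levels and splice many transcripts in patterns of their own.

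The 5′ ends of the members are shown because an mRNA that starts with a C and a run of pyrimidines, as the mRNAs of ribosomal proteins do, is known to have its translation controlled as a group. RefSeq (GRCm38.p6) gave a start for 44 of the 49 members. A C at the annotated start followed by at least 4 bases that are C or T, read on the gene's own strand only, was found in 2 of these 44 (4.55%), against 3.01% of 27025 genes in the RefSeq table and 2.90% of 9077 genes tested in both assays. Both are printed below from 15 bases before the start to 15 bases into the transcript, with the pyrimidine run that begins at the start in capitals. Hnrnpa0 lies at chr13:58128542-58128571 on the minus strand and Srsf5 at chr12:80945484-80945513 on the plus strand.
Hnrnpa0: cgcgccttcagcggcCTCTTTgtgtggtgt
Srsf5: gacgccaggacgtccCTTCCattttgtgca

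The next windows belong to 5 of the members whose footprints changed relative to RNA, as described further on. They are Hnrnpl (chr7:28810875-28810904, plus strand), Srsf1 (chr11:88047358-88047387, plus), Srsf3 (chr17:29032645-29032674, plus), the first of 3 starts of Srsf4 (chr4:131873622-131873651, plus) and Snrpd2 (chr7:19149823-19149852, plus). None of these 5 windows has a pyrimidine at its annotated start, which says only that these letters are not at that base. The last of the 3 starts of Srsf4, not printed, begins with a T.
Hnrnpl: caatgagaggcggggggaggcgggttctgc
Srsf1: gataggtttcacccaatctttttagagcgc
Srsf3: aaatagggcgaggggacggtggtggtccgc
Srsf4: gcgcgttctcgagctgcgtgctcgcgtacg
Snrpd2: tcgccctgtacgccaaaggctggagcaacg

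The first comparison asked whether mRNA levels of the splicing factors differed with genotype. Srsf4 and Hnrnpc RNA was higher in KO mice and Snrpd2 RNA was lower, and the other 46 members did not pass the test. The 3 called members were 6.12% of the 49, all of which were tested, against 7.51% of all 13507 genes tested, 3.58% higher and 3.94% lower (called means an adjusted p under 0.05 in edgeR's quasi-likelihood test). The median log2 fold change was -0.006 over the members and -0.001 over all genes. It was 0.054 for hnRNPs, 0.035 for SR proteins, -0.12 for SF3A and SF3B genes and -0.039 for Snrp genes. Control and KO libraries did not overlap in 5 members, 3 higher and 2 lower in KO mice, which is 10.2% of them against 15.1% of all genes.

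Srsf4 encodes an SR protein. Its RNA was at 26.1, 28.6, 24.9 and 29.8 CPM in control mice 1, 3, 6 and 8, and at 40.0, 37.1, 35.1 and 41.8 CPM in KO mice 2, 4, 5 and 7. Each KO library was above each control library. The rise was 40.7%, a log2 fold change of 0.49 ± 0.083 (SE, edgeR adjusted p = 0.00337). Snrpd2 encodes one of the Sm proteins. Its RNA was at 51.6, 45.7, 52.9 and 64.0 CPM in the control mice and at 32.4, 33.0, 38.6 and 31.9 CPM in the KO mice, in the same order of mice. No KO library reached the lowest control, and the log2 fold change was -0.66 ± 0.098 (SE, edgeR adjusted p = 0.00168), so that it fell by 36.7%. Hnrnpc encodes the C proteins of the core hnRNP particle. Its RNA was at 97.7, 96.8, 90.6 and 93.9 CPM in controls and at 110, 109, 115 and 104 CPM in KO mice, again with no overlap. The log2 fold change was 0.21 ± 0.056 (SE, edgeR adjusted p = 0.0343).

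Hnrnpc was no longer called in RNA without mouse 1, 2, 3, 4, 6 or 7 (adjusted p = 0.0554 to 0.108, edgeR) or with the title prefix as a block (0.0509). Summing the near-identical libraries left none of the 3 calls, with adjusted p-values of 0.0837 for Snrpd2, 0.148 for Srsf4 and 0.299 for Hnrnpc (edgeR), where 0.263% of all genes were called and 8 of the 49 members had an unadjusted p below 0.05. In mice 5 to 8 alone Srsf4 was not called either (adjusted p = 0.112, edgeR).

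The RNA of the hnRNPs was also read separately in the 2 sets of mice. In mice 1 to 4 alone, the mice that were also profiled for footprints and whose RNA libraries are the close pairs 1 and 3 and 2 and 4 named above, 15 members were called, 3 higher and 12 lower, where 24.2% of all genes were called. Of the 18 hnRNPs, 6 were lower there and 1 was higher, Hnrnpc (log2 fold change 0.18 ± 0.056 SE, edgeR adjusted p = 0.0211). Of the 8 SF3A and SF3B genes, 4 were lower. The lower hnRNPs included Hnrnpa2b1, with a log2 fold change of -0.30 ± 0.043 (SE, edgeR adjusted p = 1.32e-05). They also included Hnrnpa3 (-0.45 ± 0.072, adjusted p = 4.93e-05) and Hnrnpd (-0.43 ± 0.084, adjusted p = 0.000467). In mice 5 to 8 alone Hnrnpa2b1, Hnrnpa3 and Hnrnpd stood at 0.37 ± 0.12, 0.07 ± 0.12 and 0.51 ± 0.23 (SE), none of them called. Snrpd2 was the 1 member called there, where 0.423% of all genes were. The median over the hnRNPs was -0.096 in mice 1 to 4 and 0.20 in mice 5 to 8, and the difference between the 2 sets was not tested. Without mouse 8 the count over all members was 10, 3 higher and 7 lower, where 13.2% of all genes were called.

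Hnrnpa2b1, an abundant hnRNP that binds m6A-marked and transported RNAs, shows this spread. Its RNA was at 248 and 243 CPM in control mice 1 and 3, at 184 CPM in control mouse 6 and at 129 CPM in control mouse 8, while the KO mice lay between 197 and 204 CPM. The control libraries thus lay on both sides of the KO libraries. Hnrnpd RNA, which encodes the AU-rich element binding protein AUF1, was at 42.0, 42.7, 42.8 and 29.0 CPM in controls and at 30.1, 32.3, 70.0 and 32.6 CPM in KO mice, with KO mouse 5 highest.

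**Figure D1:**
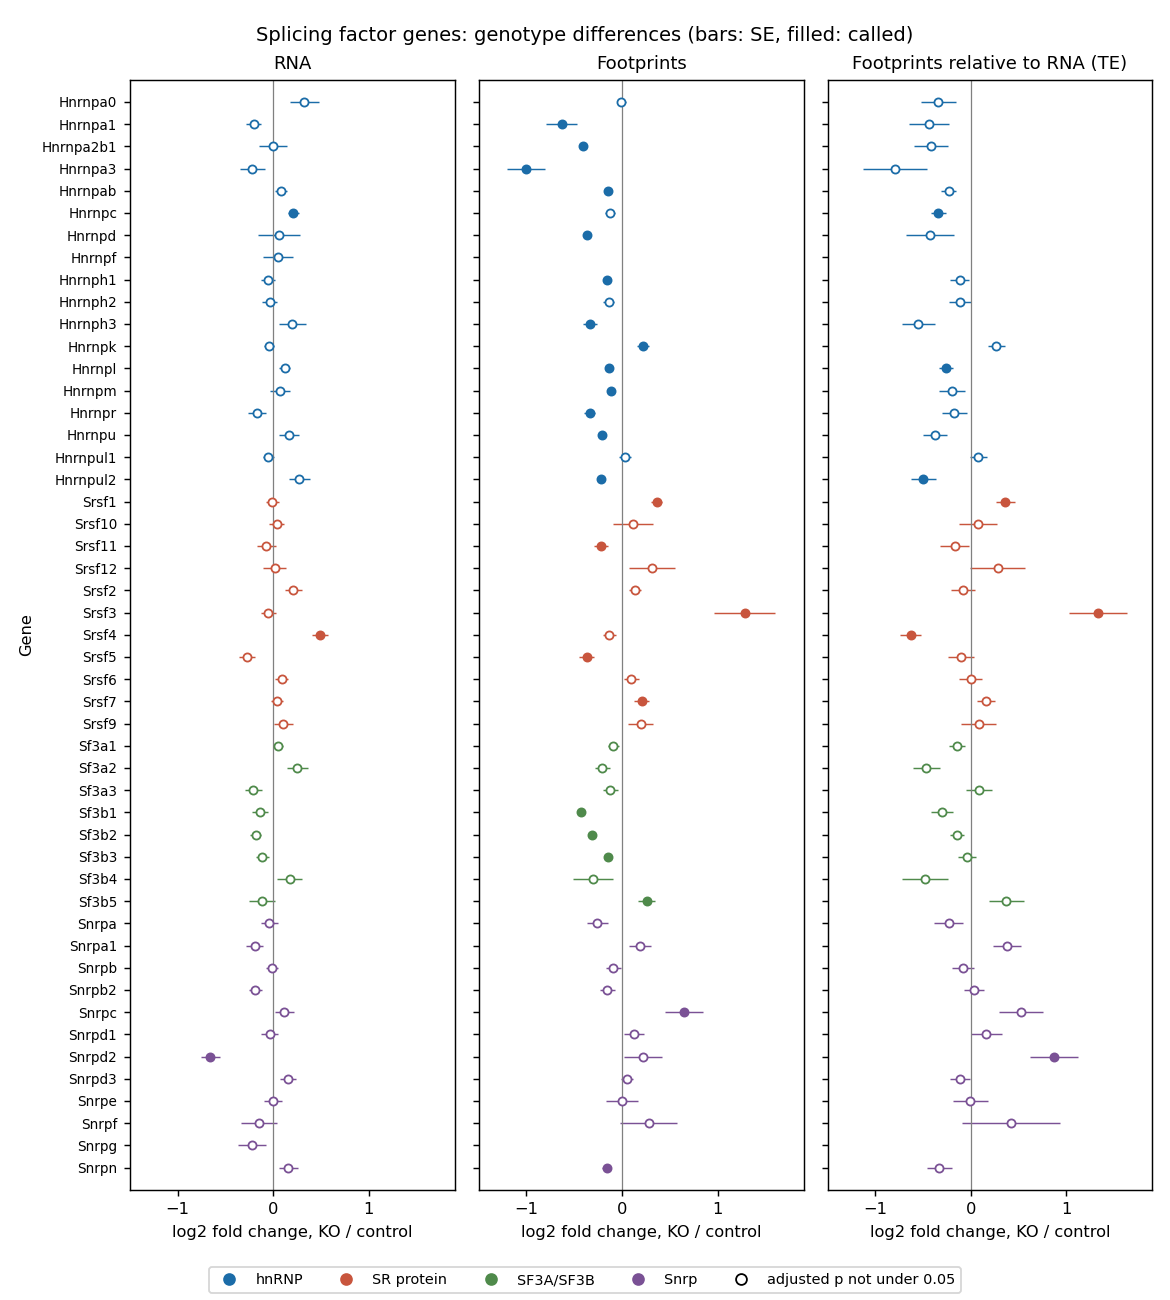
Log2 fold change between KO and control mice for each of the 49 members (rows, coloured by family) in RNA, in footprints and in footprints relative to RNA (TE), with bars of 1 SE. Filled points have an adjusted p under 0.05 in edgeR; the filled points are 3 in RNA, 24 in footprints and 7 in TE, and Hnrnpf and Snrpg have no footprint value.

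The second comparison asked whether ribosome footprints on these mRNAs differed with genotype. Footprints on most hnRNPs were lower in KO mice, as were those on Sf3b1, Sf3b2 and Sf3b3. Of 11 SR proteins, 3 were higher, Srsf3 and Srsf1 first, and 2 were lower. Of the 47 members tested, 24 were called (51.1%), 6 higher and 18 lower, against 25.7% of all 12158 genes tested (12% higher and 13.7% lower). The other 2, Hnrnpf (3 to 8 counts per library) and Snrpg (0 counts in each library except 2 counts in control mouse 9), had too few footprints to test. The median log2 fold change was -0.13 over the members and 0.006 over all genes. Libraries of the genotypes did not overlap in 6 members that were higher and 21 that were lower, 57.4% of them against 37.3% of all genes. None of the 24 was called in RNA. At a minimum count of 50, 23 of 39 members were called, against 32.9% of all genes.

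Of 17 hnRNPs tested in footprints, 12 fell, 1 rose and 4 were not called, with a median log2 fold change of -0.16 (-0.097 on plain library sizes). Summed hnRNP footprints were at 4680 to 4840 CPM in the 3 controls and 4030 to 4100 CPM in the 3 KO mice, which did not overlap. Summed hnRNP RNA over all 8 mice was at 2160 to 2620 CPM in controls and 2410 to 2720 CPM in KO mice, in overlapping ranges. In the mice that gave both assays it was lower in KO mice without overlap, at 2595 and 2615 CPM in control mice 1 and 3 and 2431 and 2412 CPM in KO mice 2 and 4. In mice 5 to 8 summed hnRNP RNA was instead higher in KO mice. Control mice 6 and 8 were at 2370 and 2162 CPM and KO mice 5 and 7 at 2725 and 2425 CPM. Such separations of 2 against 2 libraries arise readily by chance and were not tested. Footprints of astrocyte markers, summed over 6 genes, were lower in KO mice too (1730 to 1770 CPM in controls, 1610 to 1620 CPM in KO mice, 2 of 6 called lower), and so were those of oligodendrocyte markers (8210 to 8370 CPM, 8020 to 8070 CPM, 3 of 6 called lower and 1 higher). Choroid plexus markers were at 10.4 to 14.4 CPM in control footprints and 4.75 to 7.56 CPM in those of KO mice, with 2 of the 3 tested called lower. Inhibitory neuron markers were higher in KO mice, at 1620 to 1670 CPM and 1700 to 1720 CPM, with 3 of 6 called higher and 1 lower. The part of these cell types in the hnRNP result was not tested.

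Hnrnpa2b1 footprints were at 974, 920 and 873 CPM in control mice 1, 3 and 9 and at 708, 687 and 682 CPM in KO mice 2, 4 and 10. All 3 KO libraries were below all 3 controls, and the level fell by 24.8% (log2 fold change -0.41 ± 0.027 SE, edgeR adjusted p = 2.18e-24). Hnrnpd footprints were at 348, 362 and 329 CPM in controls and at 268, 273 and 267 CPM in KO mice, in the same order. The KO libraries lay within a few CPM of each other, well below the controls, with a log2 fold change of -0.36 ± 0.037 (SE, edgeR adjusted p = 3.06e-14). Hnrnpr, which encodes a close relative of Syncrip, was at 101, 106 and 104 CPM in controls and 85.1, 83.0 and 78.1 CPM in KO mice, with a log2 fold change of -0.34 ± 0.062 (SE, edgeR adjusted p = 5.12e-06). Hnrnph3, of the hnRNP H and F group that binds G-rich RNA, was at 75.7, 71.2 and 78.0 CPM in controls and 57.3, 61.3 and 59.0 CPM in KO mice, with a log2 fold change of -0.34 ± 0.072 (SE, edgeR adjusted p = 0.000116). In both genes the groups were apart.

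The 2 largest falls were in genes with few footprints. Hnrnpa3 had 47, 65 and 72 footprint counts in control mice 1, 3 and 9 and 26, 28 and 24 in KO mice 2, 4 and 10. In CPM these were 11.1, 11.0 and 12.8 against 6.18, 6.28 and 5.04, so that the level fell by 50.2% (log2 fold change -1.01 ± 0.20 SE, edgeR adjusted p = 3.80e-05). Every KO library was below every control. Hnrnpa1, a well studied hnRNP and a frequent antagonist of SR proteins, had 19.4, 13.6 and 18.6 CPM in controls and 10.9, 11.9 and 10.1 CPM in KO mice. Its groups also did not overlap, with a log2 fold change of -0.63 ± 0.16 (SE, edgeR adjusted p = 0.00138). Both genes have near-identical processed pseudogenes in the mouse genome, and how reads that match several places were counted is not given in the sources used here, so their levels are uncertain. The other 6 hnRNPs that fell, among them Hnrnpu, had log2 fold changes between -0.22 and -0.12.

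Hnrnpk was the 1 hnRNP called higher. It encodes a protein with KH domains that binds C-rich RNA, and its footprints were at 86.1, 84.0 and 99.1 CPM in control mice 1, 3 and 9 and at 109, 98.5 and 107 CPM in KO mice 2, 4 and 10. Control mouse 9 lay just above KO mouse 4. The log2 fold change was 0.22 ± 0.062 (SE, edgeR adjusted p = 0.00399), a call that did not hold without mouse 3 (adjusted p = 0.0775).

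Among the 8 genes of SF3A and SF3B, 3 fell, 1 rose and 4 were not called in footprints, with a median log2 fold change of -0.18. Sf3b1, often mutated in blood cancers, had footprints at 333, 315 and 314 CPM in control mice 1, 3 and 9 and at 243, 221 and 247 CPM in KO mice 2, 4 and 10. The groups were apart, and the level fell by 25.9% (log2 fold change -0.43 ± 0.039 SE, edgeR adjusted p = 9.84e-17). Sf3b2, which encodes another large SF3B subunit, went from 404, 393 and 398 CPM to 320, 324 and 314 CPM, a log2 fold change of -0.32 ± 0.034 (SE, edgeR adjusted p = 1.91e-13). Sf3b3 changed by -0.15 ± 0.045 (SE, edgeR adjusted p = 0.00951). Summed over the 8 genes, footprints were at 1200 to 1210 CPM in controls and 989 to 1030 CPM in KO mice.
Sf3b5, a small SF3B subunit, rose, with 41.4, 41.3 and 49.4 CPM in controls and 46.4, 53.0 and 58.6 CPM in KO mice, in overlapping groups. Its log2 fold change was 0.26 ± 0.088 (SE, edgeR adjusted p = 0.0199).

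SR proteins moved in both directions, with 3 higher, 2 lower and 6 not called of 11 and a median log2 fold change of 0.14. The 3 higher were 27.3% of the 11, against 12% of all genes tested. The 2 lower were 18.2%, close to the 13.7% of all genes. Srsf3, one of the smallest SR proteins and a factor in mRNA export, had only 13, 9 and 11 footprint counts in control mice 1, 3 and 9, and 21, 28 and 20 in KO mice 2, 4 and 10. These are 3.07, 1.53 and 1.95 CPM against 4.99, 6.28 and 4.20 CPM. The lowest KO library was above the highest control, and the log2 fold change was 1.28 ± 0.32 (SE, edgeR adjusted p = 0.000997). Srsf1, the prototype SR protein and a proto-oncogene product, rested on 383 to 531 counts per library. Its footprints were at 90.6, 90.3 and 80.3 CPM in controls and 114, 113 and 108 CPM in KO mice, with no overlap. The log2 fold change was 0.36 ± 0.060 (SE, edgeR adjusted p = 8.28e-07). Srsf7, a close relative of Srsf3 with a zinc knuckle, rose by 15.3% (log2 fold change 0.21 ± 0.078 SE, edgeR adjusted p = 0.0401). This call was lost in 8 of 13 alternatives, as given further on.

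Srsf5 and Srsf11 fell. Srsf5 footprints were at 63.4, 68.5 and 61.8 CPM in controls and 47.3, 50.5 and 52.1 CPM in KO mice. All KO libraries were lower, with a log2 fold change of -0.37 ± 0.078 (SE, edgeR adjusted p = 9.41e-05). Srsf11 had a log2 fold change of -0.22 ± 0.074 (SE, edgeR adjusted p = 0.0158). Summed SR protein footprints were at 521 to 534 CPM in controls and 544 to 552 CPM in KO mice.

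Of the 11 Snrp genes tested in footprints, 1 rose and 1 fell (18.2% called, against 25.7% of all genes). Their median log2 fold change was 0.051, with summed footprints of 556 to 562 CPM in controls and 522 to 562 CPM in KO mice. Snrpc, which helps U1 recognise the 5′ splice site, rose from 6.86, 6.29 and 7.81 CPM in control mice 1, 3 and 9 to 13.8, 8.30 and 10.9 CPM in KO mice 2, 4 and 10. The groups did not overlap (log2 fold change 0.65 ± 0.20 SE, edgeR adjusted p = 0.00927). Snrpn, the neuronal Sm protein gene of the imprinted Prader-Willi region, fell from 223, 219 and 207 CPM to 198, 186 and 195 CPM (log2 fold change -0.16 ± 0.043 SE, edgeR adjusted p = 0.00238). It shares its transcript with Snurf, and how reads were assigned between Snrpn and Snurf is not given in the sources used here.

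The balance of these calls differed between settings. On plain library sizes 7 members were higher and 12 lower in footprints, where 28.3% of all genes were called. With DESeq2, which differs in its test as well as its size factors, 2 were higher and 15 lower, where 15.0% were called, while relative log expression factors in edgeR gave 6 higher and 19 lower, where 25.6% were. Each title prefix of the footprint libraries holds 1 control and 1 KO mouse, and with the prefix as a block 6 members were higher and 21 lower, where 26.4% of all genes were called. All 24 calls were kept there, and 13 hnRNPs were among the lower members. The hnRNP counts were 1 higher and 9 lower on plain sizes and 1 higher and 11 lower with DESeq2. Srsf7 and Hnrnpm lost their call in 8 of 13 alternatives each, and Sf3b5 and Srsf11 in 5 of 13. With 1 mouse left out, Srsf7 lost it without any one of mice 1, 2, 3, 4, 9 and 10 (edgeR adjusted p = 0.0527 to 0.121), and Hnrnpm without mouse 1, 2, 3, 4 or 10 (0.056 to 0.135). Sf3b5 lost it without mouse 1, 3, 4 or 10 (0.0681 to 0.243), and Srsf11 without mouse 1, 2 or 10 (0.0501 to 0.24). Snrpc lost it without mouse 2 (edgeR adjusted p = 0.14), without mouse 3 (0.0575) and with DESeq2 (0.0737). Sf3b3 lost it on plain sizes (0.145), with DESeq2 (0.0694) and without mouse 10 (0.0904). Hnrnpab, Hnrnpl and Snrpn lost it on plain sizes (0.108, 0.0919 and 0.0658). With DESeq2 the 1 SR protein called higher was Srsf1. Srsf3 has no adjusted p-value there and was not called.

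**Figure D2:**
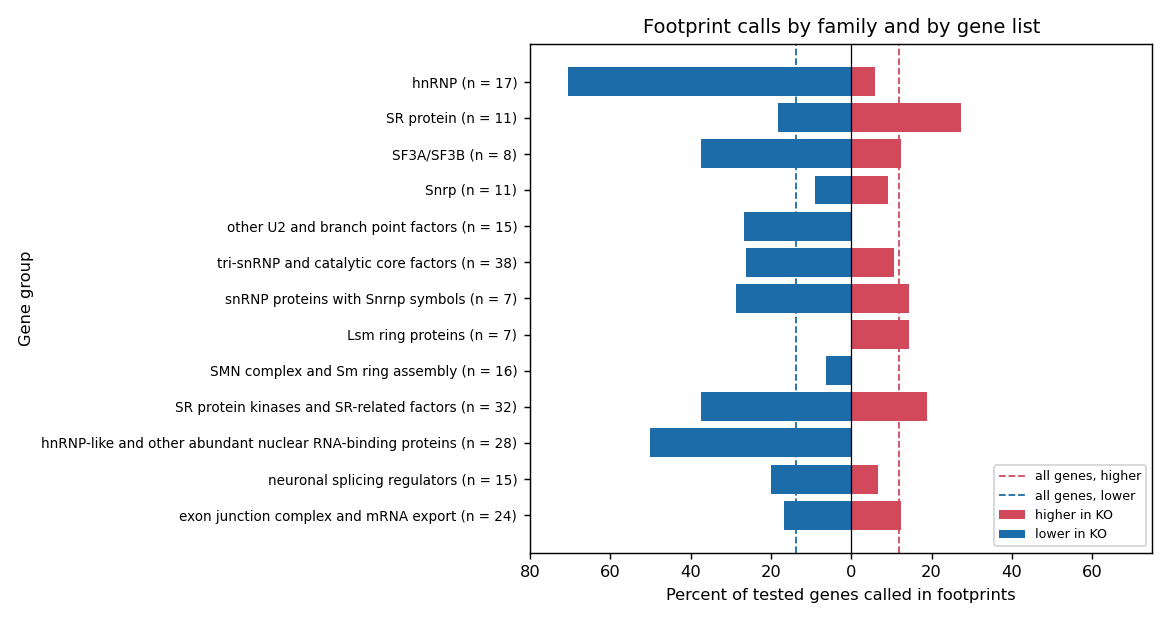
Percent of tested genes with footprints called higher (right, red) or lower (left, blue) in KO mice, for the 4 families and for 9 lists of other splicing genes. Dashed lines give the same percent over all genes (12% higher, 13.7% lower); the hnRNP bar reaches 70.6% lower and the SR protein bar 27.3% higher.

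The RNA of these members was then read in mice 1 to 4, which gave both assays. Of the 18 members with lower footprints, 13 had a log2 fold change below 0 in the RNA of mice 1 to 4. Their median was -0.15, against 0.004 over all genes. There 9 were called lower, where 24.2% of all genes were called in either direction. The shares of all genes called lower, or below 0, in these mice are not given, so neither count can be judged against them. Sf3b1 RNA was at 387 and 388 CPM in control mice 1 and 3 and at 325 and 335 CPM in KO mice 2 and 4 (log2 fold change -0.22 ± 0.038 SE, edgeR adjusted p = 0.000109, mice 1 to 4). Srsf5 RNA was at 191 and 192 CPM against 143 and 138 CPM (log2 fold change -0.44 ± 0.048 SE, edgeR adjusted p = 2.60e-07, mice 1 to 4), a change close to that of its footprints. Hnrnpul2 and Hnrnph3 RNA was not called in these mice, with log2 fold changes of 0.01 ± 0.050 and 0.06 ± 0.11 (SE). In mice 5 to 8 alone, Sf3b1 RNA stood at -0.03 ± 0.099 and Srsf5 RNA at -0.09 ± 0.1 (SE). Hnrnpul2 stood at 0.54 ± 0.12 and Hnrnph3 at 0.38 ± 0.19 there (SE), and none of these was called.

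The third comparison set footprints against RNA. Translational efficiency (TE) is the footprint level of a gene relative to its RNA, and its change was tested as the interaction of genotype and assay over all 14 libraries. TE was higher in KO mice for Srsf3, Snrpd2 and Srsf1 and lower for Srsf4, Hnrnpul2, Hnrnpc and Hnrnpl. These 7 were 14.9% of the 47 members tested, against 7.44% of all 12145 genes (3.22% higher and 4.22% lower). The median log2 fold change was -0.11 over the members, -0.34 over 17 hnRNPs (15 of them below 0), 0.072 over SR proteins, -0.14 over SF3A and SF3B genes, 0.028 over Snrp genes and -0.011 over all genes. On the exon columns of the RNA libraries, described further on, the hnRNP median was -0.19. At a minimum count of 50, 8 of 39 members were called in TE, against 11.2% of all genes.

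Mice 1 to 4 gave both assays. With mouse number as a block in these mice, 12 members were called, 5 higher and 7 lower, where 15.4% of all genes were called. All 7 were kept, and Hnrnpk, Sf3a1, Sf3b1, Snrpf and Snrpn were added. The hnRNP median was then -0.15 and the median over all members -0.039. Hnrnpd stood at -0.42 ± 0.25 (SE) over all libraries and at 0.03 ± 0.098 in the paired mice, neither of them called.

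Srsf4, Snrpd2 and Hnrnpc were the 3 members called in RNA, and each changed in TE in the opposite direction. The TE test uses the same RNA and footprint libraries as the tests above and is not independent of them. Srsf4 had 2.84 to 2.98 footprints per unit of RNA in control mice 1 and 3 and 1.83 to 2.13 in KO mice 2 and 4. Its footprints were at 77.8, 81.4 and 82.2 CPM in control mice 1, 3 and 9 and at 73.0, 79.0 and 69.1 CPM in KO mice 2, 4 and 10, and these overlapped while its RNA rose. The TE log2 fold change was -0.63 ± 0.11 (SE, edgeR adjusted p = 0.00126), and it was called under each of the 21 alternatives. Snrpd2 had 8.28, 7.48 and 7.64 footprint CPM in controls and 10.5, 9.43 and 7.35 CPM in KO mice, from 35 to 44 counts per library. The groups overlapped, and the TE log2 fold change was 0.87 ± 0.25 (SE, edgeR adjusted p = 0.0354). Hnrnpc footprints were at 147, 156 and 149 CPM in controls and 141, 132 and 142 CPM in KO mice. They did not overlap, but the footprint change itself missed the threshold (log2 fold change -0.13 ± 0.050 SE, edgeR adjusted p = 0.0508), while that of TE was -0.34 ± 0.078 (adjusted p = 0.00915).

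The other 4 TE calls were in members whose footprints were called in the same direction and whose RNA was not called. Srsf3 RNA was at 26.0, 26.4, 25.8 and 23.8 CPM in controls and 25.5, 26.1, 24.3 and 22.5 CPM in KO mice, in overlapping ranges, and its TE log2 fold change was 1.33 ± 0.30 (SE, edgeR adjusted p = 0.00899). Srsf1 RNA was at 63.2 to 70.2 CPM in controls and 58.5 to 69.7 CPM in KO mice. It too overlapped, with a TE log2 fold change of 0.36 ± 0.10 (SE, edgeR adjusted p = 0.0312). Hnrnpul2 encodes a relative of the matrix attachment protein Hnrnpu. Its footprints were at 431, 438 and 428 CPM in control mice 1, 3 and 9 and at 358, 376 and 379 CPM in KO mice 2, 4 and 10, with a TE log2 fold change of -0.50 ± 0.13 (SE, edgeR adjusted p = 0.0235). Hnrnpul2 RNA was at 210 CPM in KO mouse 5 and at 118 to 152 CPM in the other 7 mice, and with the block in mice 1 to 4 the TE log2 fold change was -0.26 ± 0.069 (SE, edgeR adjusted p = 0.00235). Hnrnpl, a repressor of exons with CA repeats, had footprints at 333, 337 and 343 CPM in controls and 292, 309 and 319 CPM in KO mice. They were apart, and the TE log2 fold change was -0.26 ± 0.074 (SE, edgeR adjusted p = 0.0313).

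The number of TE calls depended on single mice: 3 members were called without mouse 2, 2 without mouse 4 and 4 without mouse 9, where the shares of all genes called also fell, to 3.05%, 3.40% and 4.98%. The Srsf3 call did not hold without mouse 3 (edgeR adjusted p = 0.0642) or 4 (0.0602), Hnrnpc without mouse 4 (0.0698), and Hnrnpul2 without mouse 2 (0.0681), 9 (0.0512) or 10 (0.0519). Srsf1 was lost without mouse 1, 2, 3, 4 or 9 (0.0569 to 0.107), Hnrnpl without mouse 2, 3, 4 or 9 (0.0815 to 0.167) and on the exon columns (0.27), and Snrpd2 without mouse 1, 2, 4, 6, 7 or 9 (0.0508 to 0.18). Summing the near-identical libraries also ended the calls of Srsf1 (0.063) and Snrpd2 (0.0707), the exon columns that of Snrpd2 (0.0634), plain library sizes that of Hnrnpl (0.0842) and the title prefix as a block that of Hnrnpul2 (0.0572). With plain library sizes 4 members were higher and 3 lower, where 8.18% of all genes were called, and with relative log expression factors 3 were higher and 6 lower, where 7.54% were.

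**Figure D3:**
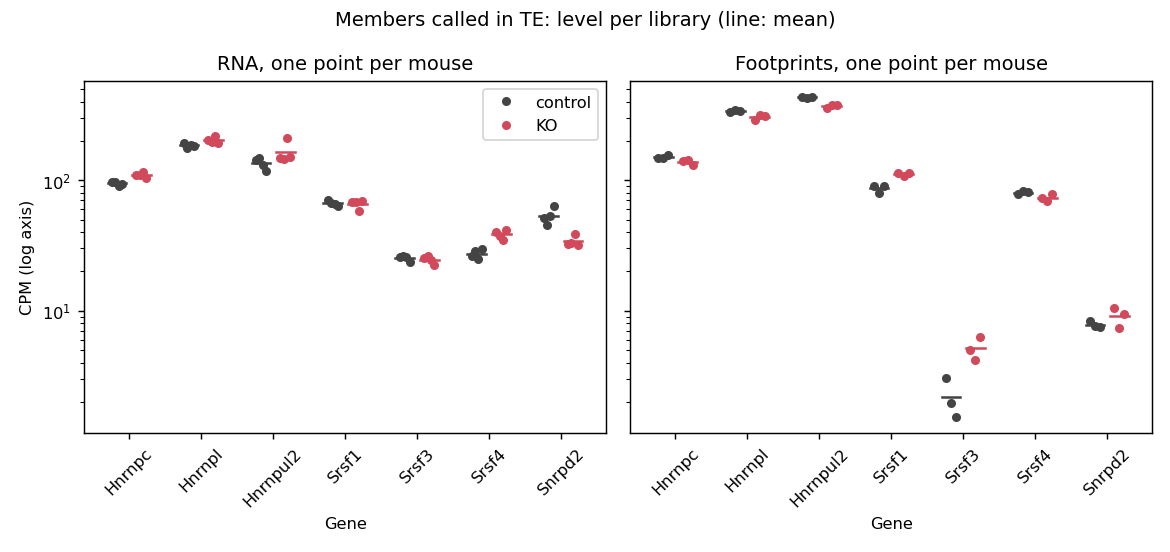
Level of the 7 members called in TE in each RNA library (left) and each footprint library (right), in CPM on a log axis, with a line at the mean of each genotype. Srsf4 RNA is higher and Snrpd2 RNA lower in each KO mouse, while Srsf1 and Srsf3 are higher only in the footprints.

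The ratio of footprints to RNA differed widely among the members in controls. Its median was 1.11 over the 47 members and 0.913 over all 12145 genes, where 1 means the same share of both assays. It was 2.07 for hnRNPs, 0.914 for SR proteins, 1.18 for SF3A and SF3B genes and 0.841 for Snrp genes. In KO mice the same medians were 1.77, 0.908, 1.18 and 0.831. These come from group means over partly different mice, and within single mice the hnRNP median was 2.16 and 1.85 in control mice 1 and 3 and 1.84 and 1.78 in KO mice 2 and 4, so that control mouse 3 and KO mouse 2 were nearly equal. A gene's length cancels in this ratio as far as both columns count the same region, which is not given in the sources used here.

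Hnrnpd had the highest ratio of the hnRNPs over the group means of controls. Hnrnpd was at 8.85, at the 99.9th percentile of all genes, with 8.28 and 8.47 in control mice 1 and 3 and 8.91 and 8.44 in KO mice 2 and 4. Hnrnpa2b1 was at 4.59 and Hnrnpa0 at 4.56, and their order differed between mice, with 3.93 and 5.48 in control mouse 1 and 3.78 and 3.39 in control mouse 3. The lowest were Hnrnpa1 (0.135) and Hnrnpa3 (0.185), the same members with few footprints described above. The ratio of Hnrnpa1 rests on the larger of its 2 deposited RNA counts and that of Hnrnpd on the smaller, as given further on.
Among the SR proteins, Srsf4 (2.94) and Srsf2 (1.93), an SR protein mutated in myeloid disease, were highest, and Srsf3 (0.0857, the 0.379th percentile) and Srsf10 (0.325) were lowest. Sf3a2 (4.64) and Sf3b5 (2.32) were highest in the SF3 complexes, whose lowest members, Sf3b1 (0.917) and Sf3b4 (0.970), lay near the median of all genes. In control mice 1 and 3, Sf3b1 was at 0.861 and 0.813, below the medians of all genes there (0.908 and 0.902). Of the Snrp genes, the Sm protein gene Snrpd3 (4.42) stood far above Snrpb (1.19), which was next, and Snrpd2 (0.146) and Snrpf (0.234) were lowest.

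**Figure D4:**
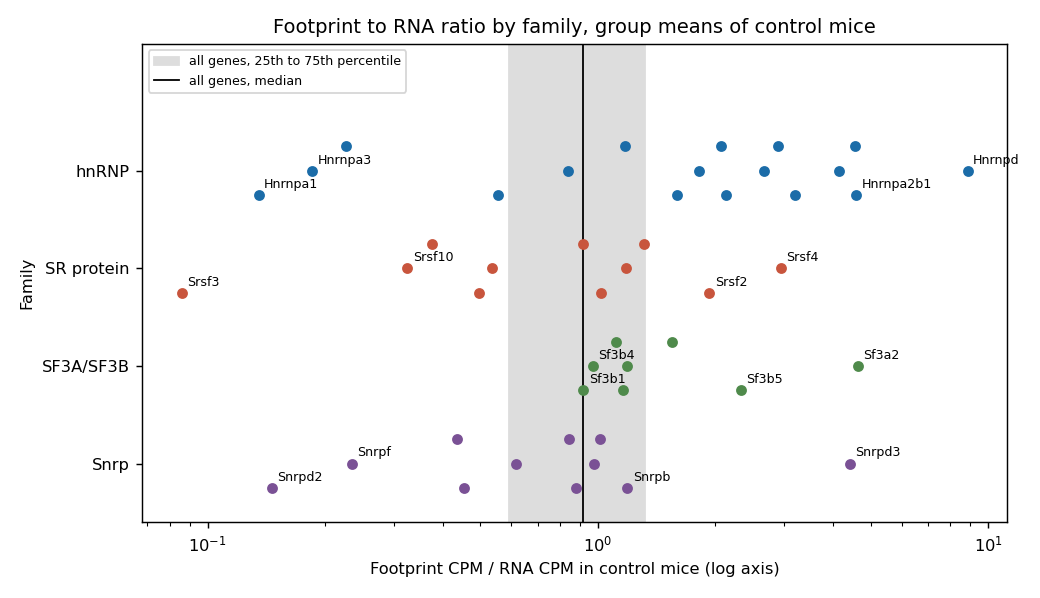
Footprint CPM over RNA CPM of each member in control mice (group means, log axis), by family, with the median (line) and the middle 50% (grey band) of all genes. The 2 highest and 2 lowest of each family are named; hnRNPs run from 0.135 to 8.85 and SF3A and SF3B genes from 0.917 to 4.64.

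Each RNA library was deposited in 2 columns, and the members differed in how these compare. The column without a suffix, used throughout because it covers the same genes as the footprints, held 52.9% to 56.7% of the total of the exon column. Over single members the median was 74.7%, against 65.6% over all genes. SR proteins were low, at a median of 41.3% with Srsf3 at 16.1% and Srsf1 at 21.6%. Snrp genes (81.1%) and SF3A and SF3B genes (82.1%) were high. HnRNPs had a median of 72.5%, but Hnrnpd was at 20.1% and Hnrnpa0 at 23.4%, so the high ratio of Hnrnpd rests on the smaller of its 2 RNA counts. For Hnrnpa1 and Snrpn the exon column held less than the other column (340 against 9425 counts and 221 against 41465 counts over 8 libraries), which occurred in 45 of 13505 genes. What each column counts beyond its header is not given in the sources used here.

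**Figure D5:**
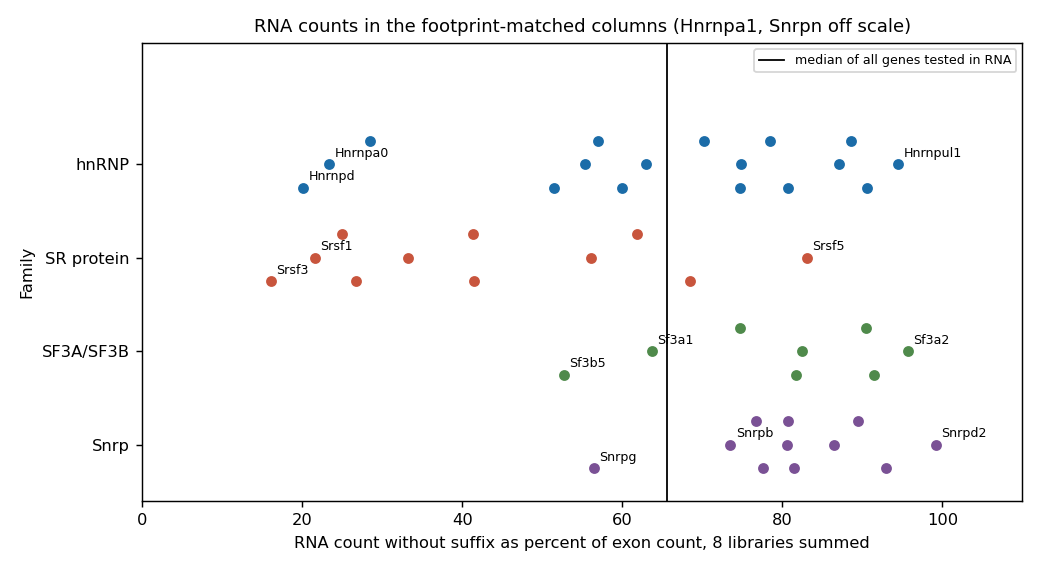
RNA count in the column without a suffix as a percent of the exon column, over the 8 RNA libraries summed, for each member by family. The line is the median of all genes (65.6%); SR proteins sit mostly to its left and Snrp genes mostly to its right, and Hnrnpa1 and Snrpn lie beyond 100%.

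Other parts of the splicing machinery were read from 9 lists that together hold 193 genes, 190 of them in the table. In RNA 4 were higher and 10 lower of 187 tested (7.49%), in footprints 16 were higher and 50 lower of 182 (36.3%), and in TE 5 were higher and 18 lower of 182 (12.6%). Over all genes tested the shares called were 7.51% in RNA, 25.7% in footprints and 7.44% in TE, and the counts of the single lists that follow are to be read against these. The hnRNP-like and other abundant nuclear RNA-binding proteins had the most one-sided counts, with 0 higher and 14 lower of 28 in footprints (median -0.11). Fubp3, a KH domain protein, had a log2 fold change of -0.38 ± 0.084 there (SE, edgeR adjusted p = 0.000223). Khdrbs1, the signalling-linked splicing regulator Sam68, rose in RNA from 62.8 ± 8.63 to 105 ± 6.32 CPM (SD, n = 4 each, edgeR adjusted p = 0.000317). Its TE fell by 0.84 ± 0.11 on the log2 scale (SE, edgeR adjusted p = 7.22e-05).

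Kinases of SR proteins and SR-related factors had 6 higher and 12 lower of 32 in footprints. Clk1, a kinase that phosphorylates SR proteins, rose from 21.5 ± 3.91 to 53.7 ± 1.92 footprint CPM (SD, n = 3 each), a log2 fold change of 1.29 ± 0.10 (SE, edgeR adjusted p = 7.62e-20). Its relative Clk4 rose too, by 0.71 ± 0.13 on the log2 scale (SE, edgeR adjusted p = 1.31e-05). Srrm2, a very large scaffold protein of nuclear speckles, fell from 412 ± 4.86 to 246 ± 5.83 CPM (SD, n = 3 each), a log2 fold change of -0.74 ± 0.035 (SE, edgeR adjusted p = 2.50e-34). Its TE fell by 0.86 ± 0.066 on that scale (SE, edgeR adjusted p = 6.34e-08). Scaf4 fell by 0.59 ± 0.084 in footprints and by 0.71 ± 0.15 in TE, both on the log2 scale (SE, edgeR adjusted p of 1.46e-08 and 0.00486).

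Proteins of the tri-snRNP and catalytic core had 4 higher and 10 lower of 38 in footprints. Sart1, which helps the tri-snRNP join the spliceosome, fell from 102 ± 6.38 to 70.7 ± 3.05 CPM (SD, n = 3 each, log2 fold change -0.52 ± 0.065 SE, edgeR adjusted p = 1.30e-10), and Prpf4b, a kinase of this stage, fell by 0.41 ± 0.070 on the log2 scale. Prpf39 rose by 0.61 ± 0.14 and Prpf18 by 0.38 ± 0.082 (SE, adjusted p = 0.000524 and 0.000124, edgeR). Other U2 and branch point factors had 0 higher and 4 lower of 15, led by Ddx46 (-0.49 ± 0.080) and Cherp (-0.40 ± 0.065). Of 7 proteins with Snrnp symbols, Snrnp200, the helicase that unwinds U4 from U6, fell by 0.29 ± 0.033 and the U1 protein Snrnp70 by 0.22 ± 0.055, and Snrnp25 rose by 0.75 ± 0.27 from 3.53 CPM (edgeR adjusted p = 0.0318). In RNA, Prpf31 fell by 0.46 ± 0.070 and Prpf3 rose by 0.57 ± 0.12, both on the log2 scale (SE, edgeR adjusted p of 0.00183 and 0.0130).

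Neuronal splicing regulators had 2 higher and 0 lower of 15 in RNA, and 1 higher and 3 lower of 15 in footprints. Rbfox3, the neuronal marker NeuN, rose in RNA from 60.5 ± 13.8 to 92.2 ± 6.35 CPM (SD, n = 4 each) and fell in footprints from 291 ± 9.31 to 252 ± 20.5 CPM (SD, n = 3 each). The log2 fold changes were 0.61 ± 0.12 in RNA, -0.21 ± 0.040 in footprints and -0.82 ± 0.15 in TE (SE, adjusted p = 0.00835, 2.04e-05 and 0.00138, edgeR). Summed excitatory neuron markers were higher in the same RNA libraries, as given above, while their footprints overlapped (5610 to 5760 CPM in controls and 5410 to 5670 CPM in KO mice, 3 of 7 called higher and 1 lower). Their part in this result was not tested. Celf5 rose in RNA (0.32 ± 0.081), Celf2 rose in footprints (0.22 ± 0.034) and Nova2 fell in TE (-0.55 ± 0.16). Lsm ring proteins had 1 higher and 0 lower of 7 in footprints, and Lsm7 fell in RNA by 0.82 ± 0.13 (SE, edgeR adjusted p = 0.00282). The SMN complex and its partners, which load Sm proteins onto small nuclear RNAs, had 1 of 16 lower in footprints (Prmt5, -0.19 ± 0.063). Exon junction and mRNA export factors had 3 higher and 4 lower of 24 in footprints.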

How the data were processed

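The authors deposited 1 table of whole-number counts per gene, not normalized. The submitters' processing notes name Bowtie2, STAR 2.5, featureCounts and Subread 1.4.6 and the builds mm9 and mm10. Their roles, the annotation, the strand setting and the handling of reads that match several places are not given in the sources used here. Per the labels' protocols, monosomes were taken from nuclease-digested lysate on a sucrose gradient, footprints became libraries by a ligation-free kit, and total RNA lost its rRNA before a directional kit was used. In 2849 genes the footprint and matching RNA columns held no value, and 27 gene names had been turned into dates.

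Counts were tested with edgeR 4.0.16 (R 4.3.3): TMM factors, filterByExpr at a minimum count of 10, glmQLFit with the current (not legacy) quasi-likelihood, group means only, two-sided, with Benjamini-Hochberg adjustment over all genes tested. RNA used 8 libraries, footprints 6 and TE 14, the last as an interaction. SE was derived from the F statistic. CPM values use the TMM factors of their own assay. The fits were tested on simulated data with several random seeds and judged on the mean over them, after single draws had differed in their share of false calls. The outcome of these simulations is not given here. Alternatives were other scalings, DESeq2 1.42.0, other count filters, the legacy quasi-likelihood (added after the data were seen), left-out mice, the title prefix as a block, exon columns, summed libraries, subsets of mice and mouse number as a block. The labels give mice 1 to 4 in both assays, which pairs them by animal. Deviations from the group mean correlated between the assays of one mouse at r = 0.00283, 0.0108, 0.0353 and -0.0123 (mice 1 to 4, across 12145 genes, which are not independent replicates).

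Members and gene lists were chosen with earlier results of these data known. Named members are those called in RNA or TE, up to 8 of the largest rises and of the largest falls among those called in footprints, and the 2 highest and 2 lowest ratios in each family. In each other list, and for each test, up to 2 called genes with the largest rise and 2 with the largest fall could be named. Sf3b2, Sf3b3, Srsf11, Snrpn, Hnrnpu, Hnrnpm, Hnrnpab, Hnrnpa0, Hnrnpf, Snrpg and the members added by the block fall outside this rule and were named after their values were seen. Rules that needed coding lengths or protein sequences were not applied, and no test was run on family sums. Levels are not compared between genes. Sequences come from RefSeq tables of GRCm38.p6. Some items are not reported here.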

Additional observations from a re-analysis of the deposited data

Results flagged for a closer look

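In groups of 4 RNA libraries, a library is given here when its gap to the nearest other library exceeded Dixon's critical value. Of 22 groups examined, 7 had such a library. Chance gives about 1 in 20, or 1.1 groups, but only for independent groups. Here the family sums contain the single genes, so this comparison cannot show an excess over chance. KO mice 2, 4 and 7 are nearly identical libraries, so a gap to KO mouse 5 is easily flagged. KO mouse 5 was high for Hnrnpul2 (210 CPM, the others 146 to 152) and Snrpd2 (38.6 CPM, the others 31.9 to 33.0), and low for Srsf1 (58.5 CPM, the others 67.9 to 69.7). It was also high for summed hnRNP RNA (2720 CPM, the others 2410 to 2430) and summed Snrp RNA (1040 CPM, the others 803 to 827; Snrpn alone was at 716 CPM, the others 498 to 507), and low for summed SR protein RNA (553 CPM, the others 577 to 581). KO mouse 7 was low for summed SF3A and SF3B RNA (926 CPM, the others 943 to 946).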

How the results depend on the processing

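Percentages are shares of all genes called under the same setting. In RNA, 3 members were called (7.51%). DESeq2 called 5 (8.47%), summed near-identical libraries 0 (0.263%), mice 5 to 8 called 1 (0.423%) and mice 1 to 4 called 15 (24.2%), and leaving out 1 mouse gave 2 to 10 (2.74% to 13.2%). The RNA median of -0.006 became 0.042 with summed libraries, 0.021 in mice 5 to 8 and -0.035 in mice 1 to 4, and ran from -0.033 to 0.016 with 1 mouse left out. With plain library sizes 2 members were higher and 2 lower in RNA (7.76%). In footprints, 24 were called (25.7%), and 20 to 24 with 1 mouse left out (20.7% to 23.4%). Blocking on title prefix gave 27 (26.4%). The median of -0.13 was -0.067 on plain library sizes and -0.14 to -0.11 with 1 mouse left out. In TE, 7 were called (7.44%). DESeq2 called 12 (8.30%) and the replicate block of mice 1 to 4 called 12 (15.4%), with a median of -0.039, and leaving out 1 mouse gave 2 to 10 (3.05% to 10.1%). The TE median of -0.11 was -0.046 on plain library sizes, -0.15 at a minimum count of 50, -0.042 on the exon columns and -0.14 with summed libraries, and ran from -0.14 to -0.071 with 1 mouse left out. The causes were not tested. Among members called on all mice, no called change reversed its direction under the alternatives run, while changes that were not called, such as those of Hnrnpd in RNA and TE and of Hnrnpa2b1 in RNA, did change sign. Over all called members and alternatives, 12 of 57 values in RNA lost their call, as did 27 of 145 in TE and 36 of 309 in footprints. The 36 leave out Srsf3 footprints with DESeq2, which have no adjusted p-value and were not called. The biological coefficient of variation was 0.0770 in RNA and 0.0211 in footprints, and counts of 9 to 28 limit Srsf3.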
